A study of Mus musculus with 48 samples.

Results

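The 10 genes described here carry or control the renal handling of phosphate and the activation of vitamin D: the sodium-phosphate cotransporters Slc34a1, Slc34a3 and Slc20a2, the scaffold protein gene Slc9a3r1, the FGF23 co-receptor gene Kl (Klotho), the FGF receptor gene Fgfr1, the parathyroid hormone receptor gene Pth1r, the vitamin D hydroxylase genes Cyp27b1 and Cyp24a1, and the vitamin D receptor gene Vdr. They were taken by name, with no threshold on a measured value. All 10 were among the 12423 genes listed in both assays, and all 10 passed the filter on low values that left 11863 genes to be tested.

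The kidneys came from male C57BL/6JRj mice of 11 to 12 weeks that had been kept for 2 weeks in 12 h of light and 12 h of darkness with food at all times. Tissue was taken every 2 h from ZT00 to ZT22, where Zeitgeber time 0 (ZT00) is lights-on and ZT12 is lights-off. At each of the 12 timepoints 2 replicate pools were made, each from the lysates of 2 mice, and from each of the 24 lysate pools both an RPF-seq and an RNA-seq library was prepared. RPF-seq reads the mRNA fragments that ribosomes protect from RNase I, so it measures ribosome occupancy, whereas RNA-seq measures transcript abundance. All groups were untreated and of 1 genotype, so time of day was the only factor compared. Because each pool mixed whole-organ lysates of 2 animals, neither single animals nor single cell types can be seen, and fewer cells of a type cannot be told apart from less RNA per cell.

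Phosphate is filtered in the glomerulus and taken back mainly in the proximal tubule, where Slc34a1 and Slc34a3 encode the cotransporters of the brush border. Parathyroid hormone, acting through Pth1r, and FGF23, acting through FGF receptors together with Klotho, remove these carriers from the membrane. The same hormones set the balance of the vitamin D enzymes: CYP27B1 makes the active hormone 1,25-dihydroxyvitamin D, CYP24A1 breaks it down, and the active hormone in turn binds the vitamin D receptor, of which Cyp24a1 is a classical target gene.

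The unit throughout is RPKM (reads per kilobase of coding sequence, scaled to the depth of the library), which is per length, so that levels of different genes can be set side by side. Relative depth ran from 0.598 to 2.04 in RNA-seq and from 0.701 to 1.58 in RPF-seq. The upper quartile of RPKM, on which the values were normalised, was nearly equal across libraries. It lay between 37.8 and 39.3 in RNA-seq and between 36.4 and 37.7 in RPF-seq. The RPKM total of the RNA-seq libraries was less even, with 782122 to 827360 from ZT00 to ZT10 and 815205 to 930235 from ZT12 to ZT22. The RPF-seq library of replicate 2 at ZT04 listed 162 genes at 0, against at most 23 in any other RPF-seq library, and all 10 genes were above 0 in it. All 6 clock genes used to check the time labels were called rhythmic in both assays, with Arntl peaking at 22.5 h and Dbp at 10.5 h in RNA-seq. All 7 proximal tubule markers were listed, and their summed RNA level was lower in the 12 pools from ZT00 to ZT10 (2581 to 2762 RPKM) than in the 12 pools from ZT12 to ZT22 (2865 to 3370 RPKM). None of the 4 adrenal cortex markers was listed.

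Transcript levels of the 10 genes spanned nearly the whole range of the tissue. Slc34a1, the main phosphate cotransporter of the proximal tubule, stood at 2387 ± 182 RPKM (SD, n = 24 pools) in RNA-seq, higher than 99.8% of all genes tested. Kl followed at 382 ± 22.9 RPKM and Pth1r at 329 ± 18.6 RPKM. At the other end, Cyp27b1 had 3.07 ± 1.67 RPKM, and 13.4% of the genes tested were lower still. The median gene tested had 16.5 RPKM in RNA-seq and 13.7 RPKM in RPF-seq.

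The complete order in RNA-seq was Slc34a1, Kl, Pth1r, Slc9a3r1, Vdr, Slc34a3, Cyp24a1, Slc20a2, Fgfr1 and Cyp27b1, by the mean of log2(RPKM + 0.1). Neighbours in that order were compared by an exact two-sided sign-flip permutation test over the 12 timepoint means, adjusted over the 9 pairs, and 6 pairs differed. Kl lay above Pth1r at 12 of 12 timepoints although the fold between them was only 1.16 (adjusted p = 0.00073, the smallest the test allows). Here and below, the test measures how steady a difference was over the timepoints. It does not cover an RPKM error that a gene carries in every library. Mappable length is such a case, which the paper left uncorrected as negligible. Slc34a3 and Cyp24a1 (adjusted p = 0.34, higher at 7 of 12 timepoints), Cyp24a1 and Slc20a2 (adjusted p = 0.64) and Slc20a2 and Fgfr1 (adjusted p = 0.59) did not differ beyond their spread. For both pairs with Cyp24a1 the spread was its daily range, with an SD of the log2 difference of 1.05 and 1.01 over the timepoints.

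In RPF-seq the order was Slc34a1, Kl, Slc9a3r1, Vdr, Pth1r, Cyp24a1, Slc34a3, Slc20a2, Fgfr1 and Cyp27b1. Here 8 of the 9 neighbouring pairs differed by the same exact permutation test, and Cyp24a1 and Slc34a3 did not (adjusted p = 0.11). Pth1r lay above Cyp24a1 at only 8 of 12 timepoints (adjusted p = 0.036 by that test). From ZT04 to ZT10 the footprints of Cyp24a1 were the higher. Slc34a1 reached 4920 ± 455 RPKM (SD, n = 24 pools) and Kl 517 ± 25.5 RPKM. Pth1r was the gene that moved furthest down the order, from 329 RPKM in RNA-seq to 115 ± 11.0 RPKM in RPF-seq.

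**Figure D1:**
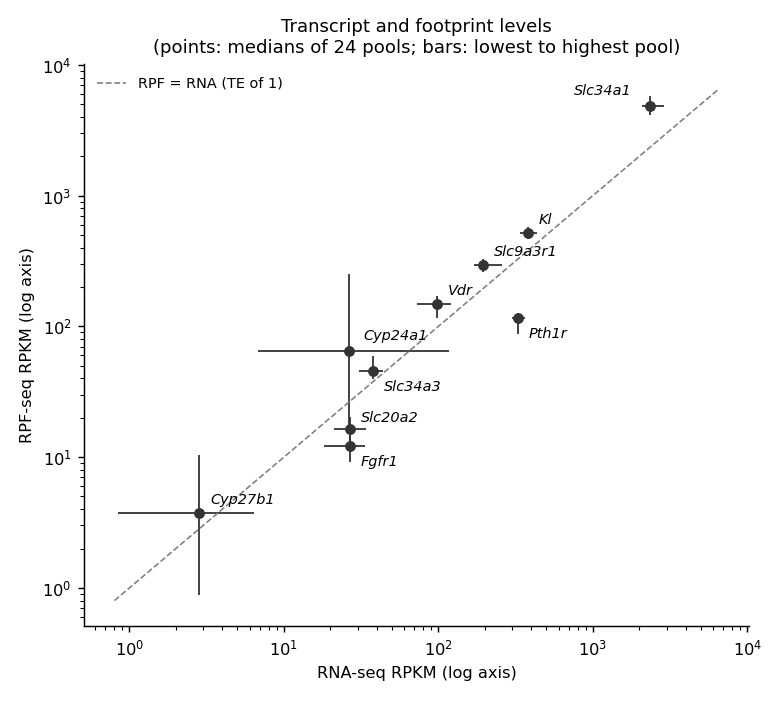
RNA-seq level (x axis, RPKM, log axis) against RPF-seq level (y axis, RPKM, log axis) of the 10 genes; points are medians of 24 pools, bars run from the lowest to the highest pool, and the dashed line marks equal levels. Pth1r, Fgfr1 and Slc20a2 lie below the line, and Cyp24a1 and Cyp27b1 have the longest bars.

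The translation efficiency (TE), obtained by dividing the footprint RPKM by the transcript RPKM of a pool, differed widely among the genes. Cyp24a1 had a TE of 2.26 ± 0.223 (SD, n = 24 pools) and Slc34a1 of 2.07 ± 0.270, higher than 97.0% and 96.0% of all genes tested. Vdr (1.501 ± 0.184), Slc9a3r1 (1.49 ± 0.150), Kl (1.36 ± 0.0936), Cyp27b1 (1.31 ± 0.373) and Slc34a3 (1.24 ± 0.113) formed a middle group above the median gene at 0.956. Slc20a2 had 0.607 ± 0.102, Fgfr1 0.481 ± 0.0913 and Pth1r 0.349 ± 0.0386, and only 7.75% of genes had a TE below that of Pth1r. The shares of genes and the median gene refer to the mean footprint RPKM divided by the mean transcript RPKM. By that ratio Cyp24a1 had 2.18, Slc34a1 2.06 and Pth1r 0.348. TE values are relative to the normalisation of each assay and do not count ribosomes per mRNA.

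By the exact permutation test over timepoint means, 6 of the 9 neighbouring pairs in TE differed. The step between Slc34a3 and Slc20a2 was 2.06-fold and was present at 12 of 12 timepoints (adjusted p = 0.0011), as were those from Slc20a2 to Fgfr1 (1.26-fold) and from Fgfr1 to Pth1r (1.37-fold). The order among Vdr and Slc9a3r1 (adjusted p = 0.95), Kl and Cyp27b1 (adjusted p = 0.11) and Cyp27b1 and Slc34a3 (adjusted p = 0.92) was not resolved.

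Whether these genes follow the time of day was asked with a 24-h cosine curve fitted to log2(RPKM + 0.1) over the 24 pools (limma moderated F test, Benjamini-Hochberg adjustment over all 11863 genes). A rhythm was called at an FDR under 0.05 and a fitted peak-to-trough fold of at least 1.5. In RNA-seq 2 of the 10 genes were called, Cyp24a1 and Cyp27b1, against 10.2% of all genes tested. In RPF-seq the same 2 genes were called, against 7.58% of all genes. In TE none of the 10 was called by limma, against 3.74% of all genes. An unadjusted p under 0.05 was reached by 3 of them. At least 17.1% of all genes, the share past the FDR alone, reached it too.

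The 8 other genes had fitted folds of at most 1.29 in both assays. The median fold of the 10 genes was 1.18 in RNA-seq and 1.19 in RPF-seq, beside 1.205 and 1.18 over all genes tested. A fitted fold cannot fall below 1, so even a flat gene has a fold somewhat above it. Without the fold cutoff, 6 of 10 genes passed the FDR by transcript level, 5 by footprint level and 3 by TE, beside 48.6%, 30.9% and 17.1% of all genes.

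**Figure D2:**
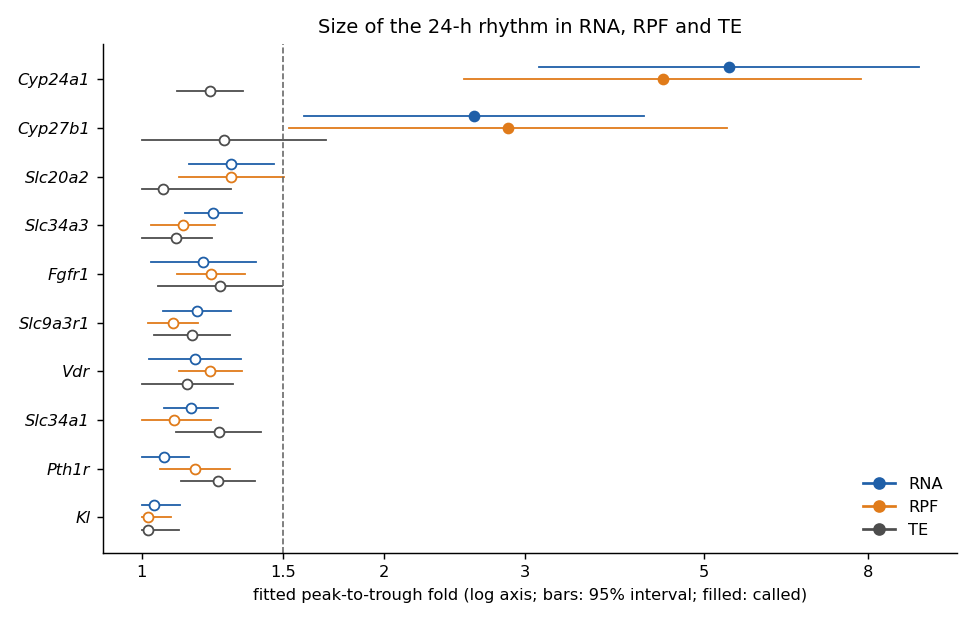
Fitted peak-to-trough fold (x axis, log axis) of each of the 10 genes in RNA-seq, RPF-seq and TE; bars are 95% intervals cut at 1, filled points passed both thresholds, and the dashed line is the fold cutoff of 1.5. Filled points are seen only for Cyp24a1 and Cyp27b1, in RNA and RPF.

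Cyp24a1 encodes the mitochondrial 24-hydroxylase that inactivates vitamin D hormone (chr2:170482708-170497145, minus strand, GRCm38). Its RNA rose from 12.1 and 6.79 RPKM in the 2 pools at ZT00 to 35.7 and 67.0 at ZT02, 87.5 and 46.9 at ZT04 and 118 and 88.1 at ZT06. It was 54.1 and 61.7 RPKM at ZT08 and 52.3 and 70.9 at ZT10, then 19.1 and 23.89 at ZT12 and 11.4 and 13.2 at ZT14. The remaining values were 37.0 and 14.4 RPKM at ZT16, 11.8 and 13.2 at ZT18, 24.1 and 21.97 at ZT20 and 13.99 and 28.9 at ZT22. High values thus filled the light phase after its first timepoint, and of the 14 pools outside ZT02 to ZT10, only replicate 1 at ZT16 exceeded the lowest of the 10 pools inside it.

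The fitted RNA fold of Cyp24a1 was 5.37 (log2 2.43 ± 0.40, SE) with a peak at 6.4 ± 0.6 h (adjusted p = 0.00011), larger than the fold of 99.9% of genes tested. The footprints had the same course, from 24.9 and 15.5 RPKM at ZT00 to 252 and 157 at ZT06 and 25.3 and 30.4 at ZT14. Their fitted fold was 4.45 (log2 2.15 ± 0.42) with a peak at 6.5 ± 0.7 h (adjusted p = 0.0013). The peaks in RPF-seq and RNA-seq were 0.12 ± 0.97 h (SE) apart. Timepoint means, which assume no curve, ran from 9.46 RPKM at ZT00 to 103 at ZT06 in RNA-seq, a 10.9-fold range, and from 20.2 to 204 RPKM in RPF-seq, a 10.1-fold range.

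The call of Cyp24a1 held in RNA-seq with any 1 of the 24 pools left out (fitted fold 4.83 to 6.20) and in RPF-seq likewise (3.97 to 5.14). With all pools of replicate 1 left out the RPF-seq fold was 4.27 and its adjusted p 0.096. The summed RNA of the proximal tubule markers, given above, was higher in the dark phase, when Cyp24a1 was low. Thick ascending limb markers were also higher in the dark phase (median 3525 RPKM against 3062). So were collecting duct (304 against 278), distal convoluted tubule (375 against 365), immune (8.04 against 7.34) and liver markers (353 against 300). Endothelium markers differed little (130 against 128). Fat and podocyte markers ran with Cyp24a1. The summed RNA of the 2 listed of 3 fat markers was 0.656 to 6.05 RPKM (median 1.86) in the light phase. It was 0.250 to 3.06 RPKM (median 0.844) in the dark phase, with low means for Adipoq (1.15 RPKM) and Plin1 (0.522 RPKM). The 3 podocyte markers, all listed, had 73.3 to 93.1 RPKM (median 85.7) and 54.4 to 86.1 RPKM (median 73.3). The marker sums were not scaled to the RPKM total of the library, which tended to be higher in the dark phase, as given above. The part of tissue makeup in the rhythm of Cyp24a1 was not tested.

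**Figure D3:**
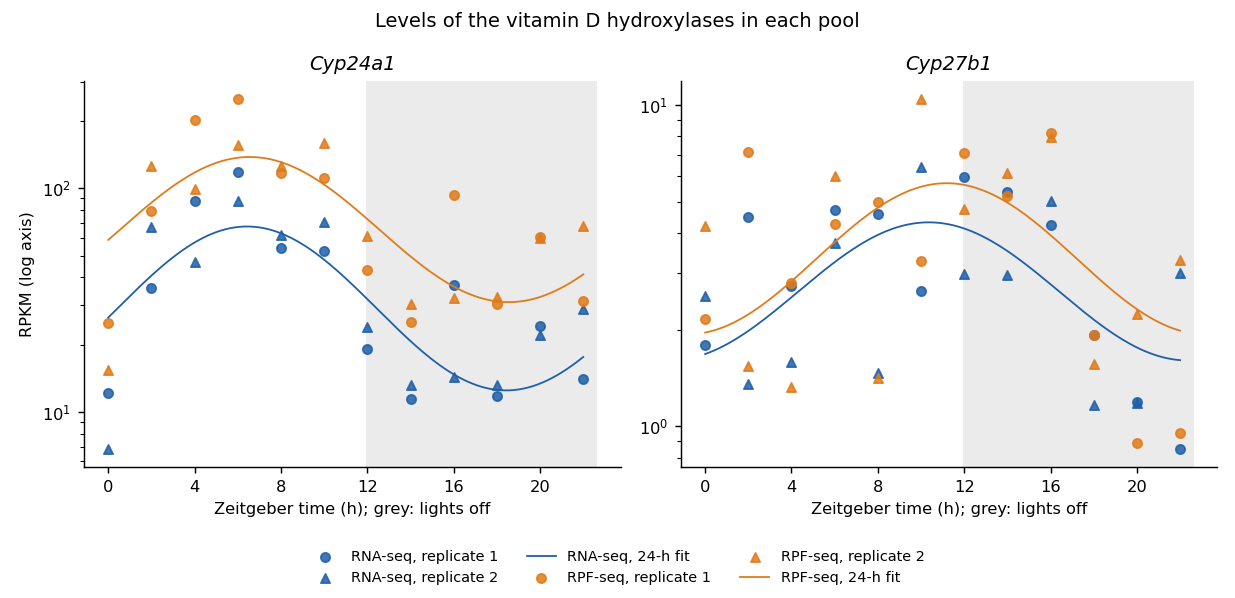
RPKM (y axis, log axis) of Cyp24a1 and Cyp27b1 in each pool against Zeitgeber time (x axis, h), with RNA-seq in blue, RPF-seq in orange, circles for replicate 1, triangles for replicate 2 and the fitted 24-h curves as lines. The Cyp24a1 curves peak near 6.5 h and the Cyp27b1 curves at 10.4 and 11.2 h, with wider scatter between replicates for Cyp27b1.

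Cyp27b1 encodes the 1-alpha-hydroxylase that makes the active hormone (chr10:127048250-127053006, plus strand, GRCm38). Because it is one of the 2 rhythmic genes, its promoter window is printed here beside that of Slc34a3, from RefSeq on GRCm38.p6 (chr10:127047996-127048295, plus strand, and chr2:25234185-25234484, minus strand), each from 250 bases before the transcript start to 50 bases after it, 5′ to 3′. Capitals mark letters that match 1 of the motifs named in the next paragraph, on either strand.
Cyp27b1: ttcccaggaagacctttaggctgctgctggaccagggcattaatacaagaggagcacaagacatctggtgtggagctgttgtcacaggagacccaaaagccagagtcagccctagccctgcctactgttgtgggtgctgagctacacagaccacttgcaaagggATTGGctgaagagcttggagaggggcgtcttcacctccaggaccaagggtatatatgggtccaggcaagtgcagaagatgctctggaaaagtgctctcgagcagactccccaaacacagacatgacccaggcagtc
Slc34a3: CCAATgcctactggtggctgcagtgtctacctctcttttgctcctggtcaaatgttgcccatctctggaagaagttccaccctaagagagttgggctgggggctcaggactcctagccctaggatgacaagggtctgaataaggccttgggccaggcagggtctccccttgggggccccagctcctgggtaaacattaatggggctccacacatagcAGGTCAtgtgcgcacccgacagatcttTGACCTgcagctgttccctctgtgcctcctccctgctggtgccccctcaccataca

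Windows were matched for 7 of the 10 genes, and Cyp24a1, Slc20a2 and Fgfr1 were not among them. Both strands were searched for the E-box CACGTG (in 7.15% of all 32851 promoter windows), the D-box core TTATGTAA (0.938%), the nuclear receptor motif AGGTCA (16.3%), the cAMP response element TGACGTCA (1.79%), the CCAAT box (37.4%), the GC box GGGCGG (35.7%) and the glucocorticoid receptor motif TGTTCT (19.0%). In the Cyp27b1 window the only match was 1 CCAAT box on the reverse strand, 86 bases before the start. The Slc34a3 window held AGGTCA on the forward strand 33 bases before the start and on the reverse strand 6 bases before it, and 1 CCAAT box. No CACGTG or TTATGTAA was found in the windows of these 7 genes, which says only that those letters are not there.

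The RNA of Cyp27b1 was 1.79 and 2.54 RPKM in the pools at ZT00, 4.47 and 1.35 at ZT02, 2.73 and 1.59 at ZT04 and 4.72 and 3.72 at ZT06. It was 4.58 and 1.47 RPKM at ZT08, 2.64 and 6.39 at ZT10, 5.97 and 2.98 at ZT12 and 5.34 and 2.95 at ZT14. It was 4.23 and 5.00 RPKM at ZT16, 1.93 and 1.17 at ZT18, 1.19 and 1.18 at ZT20 and 0.848 and 3.00 at ZT22. The highest timepoint mean was thus at ZT16 (4.62 RPKM) and the lowest 4 h later at ZT20 (1.19 RPKM), while pools of 1 timepoint differed by up to 3.26-fold on the RPKM + 0.1 scale.

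The fitted RNA fold of Cyp27b1 was 2.59 (log2 1.37 ± 0.36, SE) with a peak at 10.4 ± 1.0 h (adjusted p = 0.0095). In RPF-seq it was 2.85 (log2 1.51 ± 0.46) with a peak at 11.2 ± 1.2 h (adjusted p = 0.040). Footprint levels ran from 0.887 RPKM in replicate 1 at ZT20 to 10.5 RPKM in replicate 2 at ZT10, with a median of 3.74 RPKM. The TE of Cyp27b1 had a fitted fold of 1.27 that did not pass the test (adjusted p = 0.45).

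These Cyp27b1 values rested on few reads, between 18 and 310 per RNA-seq library and between 24 and 485 per RPF-seq library. Counting error was nevertheless the smaller part: the SD between replicate pools on the log2 scale was 0.729 in RNA-seq, 3.52 times the SD that read counting alone would give, and 0.849 in RPF-seq, 5.42 times it. The RNA-seq call held with any 1 pool left out (fold 2.32 to 3.01), but not without replicate 1 (fold 2.03, adjusted p = 0.36) nor with timepoint as a factor in place of the cosine (fold 3.66, adjusted p = 0.13). The RPF-seq call was lost, at adjusted p between 0.050 and 0.087 and folds between 2.52 and 2.95, when any 1 of 12 pools was left out: replicate 1 at ZT00, ZT06, ZT08, ZT12, ZT14, ZT20 or ZT22, or replicate 2 at ZT02, ZT10, ZT12, ZT14 or ZT20. It was also lost without replicate 1 (fold 2.70, adjusted p = 0.35), without replicate 2 (fold 3.57, adjusted p = 0.086) and with timepoint as a factor (fold 5.38, adjusted p = 0.14).

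Set against each other in the same pool, the RNA level of Cyp24a1 was between 2.14 and 49.6 times that of Cyp27b1 (median 11.2). The lowest ratio was in replicate 1 at ZT14 and the highest in replicate 2 at ZT02. Averaged by timepoint, the ratio was highest at ZT04 (30.8 in RNA-seq and 73.7 in RPF-seq) and lowest at ZT14 (3.30 and 4.91). The transcript level of the inactivating enzyme thus exceeded that of the activating enzyme in all 24 pools, and the timepoint means came closest early in the dark phase.

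The 2 pools of a timepoint differed more for these enzymes than for most genes. The SD between replicates of Cyp24a1 was 0.493 (log2) in RNA-seq and 0.526 in RPF-seq, beside a median of 0.145 and 0.158 over all genes tested. For Cyp27b1 it exceeded that of 99.7% of transcripts in RNA-seq and of 99.5% of genes by footprints. By contrast Kl (0.0630 and 0.0822) and Slc34a1 (0.0668 and 0.111) were among the steadier genes.

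The differences between replicate pools were shared by both assays in the case of the enzymes. Over the 12 timepoints, the log2 difference of Cyp24a1 between replicate 1 and replicate 2 in RNA-seq and that in RPF-seq had a Pearson r of 0.980 (permutation p = 2.0e-05, adjusted p = 0.00024 over 12 relations) and a Spearman rho of 0.993 (permutation p = 2.0e-05, adjusted p = 0.00024), both at the smallest p the resamples can give, and had the same sign at 12 of 12 timepoints. For Cyp27b1 r was 0.898 (permutation p = 4.0e-05, adjusted p = 0.00024) and rho 0.895 (permutation p = 0.00012, adjusted p = 0.00072). Its differences had the same sign in both assays at 8 of 12 timepoints, beside 9 for Vdr and 8 for Fgfr1. Without the 2 timepoints farthest from the median, r was 0.960 for Cyp24a1 and 0.861 for Cyp27b1. No relation of the 8 other genes passed the adjustment (r between -0.024 and 0.508), nor did the differences of Cyp24a1 follow those of Cyp27b1 (r = -0.008 in RNA-seq and 0.099 in RPF-seq, permutation adjusted p = 0.97 for both). The comparison of replicate differences was chosen after the values were seen, and the 2 libraries of a pool share its animals and its lysate.

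**Figure D4:**
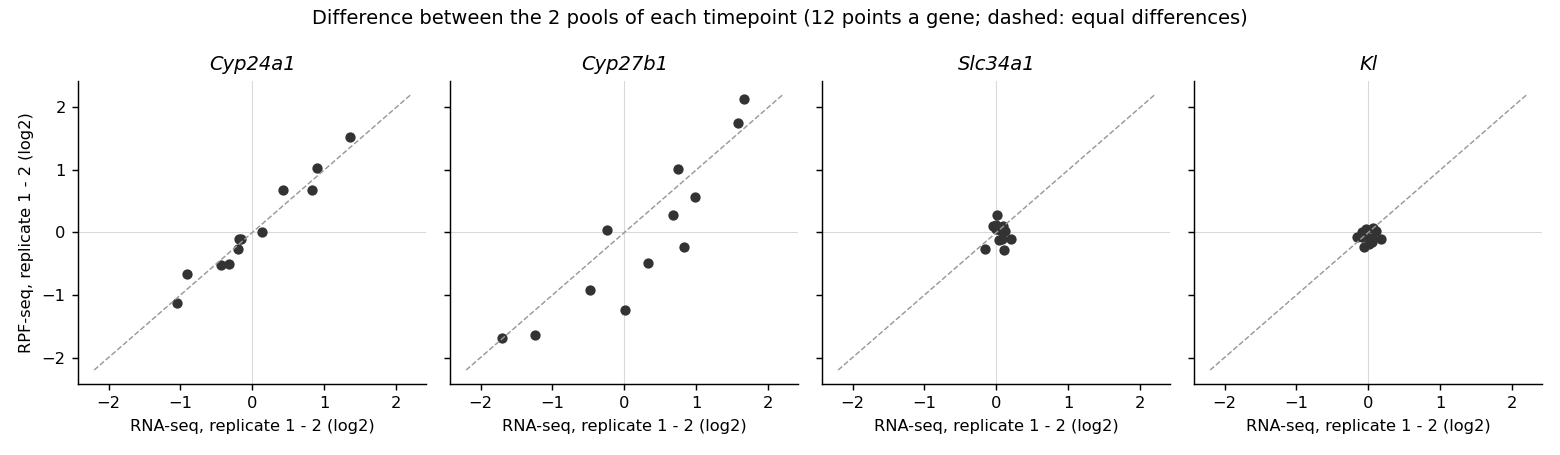
Log2 difference between replicate 1 and replicate 2 at each of the 12 timepoints in RNA-seq (x axis) and in RPF-seq (y axis) for Cyp24a1, Cyp27b1, Slc34a1 and Kl; the dashed line marks equal differences. Points of Cyp24a1 and Cyp27b1 spread along the line, whereas those of Slc34a1 and Kl stay close to 0.

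Cyp24a1 was also 1 of the 3 genes whose TE passed the FDR, although its fold of 1.22 (log2 0.28 ± 0.07, SE) stayed under the cutoff (adjusted p = 0.022). Its TE peaked at 17.5 ± 0.9 h, near the trough of its RNA: the pool with the lowest TE was replicate 2 at ZT06 (1.78) and that with the highest replicate 2 at ZT20 (2.73). Pools of the light phase had 1.78 to 2.32 and those of the dark phase 2.21 to 2.73, so the phases overlapped only between 2.21 and 2.32. With a pseudocount of 1 the adjusted p was 0.052 and with a 12-h harmonic added 0.073.

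Slc34a1 (chr13:55398187-55415592, plus strand) encodes NaPi-IIa, and its RNA varied little over the day, from 2086 RPKM (replicate 2 at ZT22) to 2883 RPKM (replicate 1 at ZT14) with a median of 2352. Its RNA rhythm passed the FDR with a fold of 1.15 and a peak at 10.2 ± 1.1 h (adjusted p = 0.016), under the fold cutoff. Its footprints, with 4130 to 5787 RPKM, had a fold of 1.10 with adjusted p = 0.36. The TE had a fold of 1.25 with a peak at 21.2 ± 1.1 h (adjusted p = 0.041), again under the cutoff. The timepoint mean of the TE was lowest at ZT12 (1.82) and highest at ZT20 (2.60). The TE result was the least secure of these: its adjusted p exceeded 0.05 when any 1 of 11 pools was left out and reached 0.093 (replicate 1 at ZT00, ZT08, ZT10, ZT12, ZT18, ZT20 or ZT22, and replicate 2 at ZT10, ZT12, ZT20 or ZT22).

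Slc34a3 (chr2:25228898-25234364, minus strand) encodes NaPi-IIc, the minor cotransporter of the brush border. Its RNA was 33.3 to 43.5 RPKM (median 38.8) from ZT00 to ZT10 and 30.5 to 41.8 RPKM (median 34.2) from ZT12 to ZT22, so that the phases overlapped widely. The fitted RNA fold was 1.23 with a peak at 7.6 ± 0.8 h (adjusted p = 0.00098), and the RPF-seq fold 1.13 (adjusted p = 0.13). In both assays the highest pool was replicate 2 at ZT06, with 43.5 RPKM in RNA-seq and 59.4 RPKM in RPF-seq.

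Slc20a2 (chr8:22476788-22569612, plus strand) encodes the widely expressed type III carrier PiT-2. It had the largest fitted fold of the genes that were not called, 1.29 in both assays, with peaks at 6.1 ± 0.9 h in RNA-seq (adjusted p = 0.0053) and 7.0 ± 1.1 h in RPF-seq (adjusted p = 0.035). RNA levels ran from 21.1 to 33.9 RPKM, and both ends came from the same timepoint, replicate 2 and replicate 1 at ZT12. The RPF-seq result stayed under 0.05 in 16 of 24 fits with 1 pool left out. Without replicate 1 at ZT06, ZT10, ZT16, ZT18 or ZT20, or replicate 2 at ZT06, ZT08 or ZT18, it did not, with adjusted p up to 0.086.

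Slc9a3r1 (chr11:115163341-115181181, plus strand) encodes NHERF1, the scaffold that holds NaPi-IIa at the brush border. Its RNA lay between 169 and 259 RPKM and its footprints between 260 and 330 RPKM. The RNA fold was 1.17 with a peak at 10.1 ± 1.2 h (adjusted p = 0.034), close to that of Slc34a1, and the RPF-seq fold 1.09 (adjusted p = 0.15). The highest RNA value of both Slc9a3r1 and Slc34a1 was in replicate 1 at ZT14, and the highest TE of both in replicate 2 at ZT20. The adjusted p of the Slc9a3r1 RNA rhythm reached 0.074 and exceeded 0.05 without replicate 1 at ZT00, ZT08, ZT10 or ZT12, or replicate 2 at ZT08, ZT20 or ZT22.

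Kl (chr5:150952607-150993817, plus strand) encodes Klotho, the co-receptor that FGF23 needs in the kidney. It had the smallest fitted folds of the 10 genes in RNA-seq, RPF-seq and TE. RNA levels lay between 340 and 436 RPKM and footprint levels between 469 and 574 RPKM, a 1.28-fold and a 1.23-fold range over all 24 pools. The fitted fold was 1.04 in RNA-seq (95% interval 1.00 to 1.12, adjusted p = 0.70), 1.02 in RPF-seq (1.00 to 1.09, adjusted p = 0.90) and 1.02 in TE (1.00 to 1.11, adjusted p = 0.95). Only 3.16% of genes tested had a smaller RNA fold and 1.15% a smaller RPF fold. A rhythm of the called size was therefore outside these intervals in all 3 measures.

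Fgfr1 (chr8:25513654-25575718, plus strand) encodes the receptor that pairs with Klotho. Its RNA ran from 18.1 to 33.6 RPKM with a fold of 1.19 (adjusted p = 0.14), and its footprints from 9.20 to 14.4 RPKM with a fold of 1.22 and a peak at 11.0 ± 1.0 h (adjusted p = 0.012). The RNA fold was 1.17 without replicate 1 and 1.37 without replicate 2, so a flat RNA was not shown. The TE of Fgfr1 reached 0.785 in replicate 2 at ZT12, where the RNA was at its lowest, against a median of 0.459. Its TE rhythm had a fold of 1.25 and an adjusted p of 0.18, so the difference between the 2 assays was not shown.

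Pth1r (chr9:110722085-110747145, minus strand) encodes the receptor through which parathyroid hormone acts on the tubule. Its RNA was between 299 and 366 RPKM, with both ends at ZT10, and a fold of 1.07 (adjusted p = 0.28). Footprints ran from 87.8 RPKM (replicate 2 at ZT04) to 127 RPKM (replicate 2 at ZT16), with a fold of 1.17 (adjusted p = 0.062). Under quantile normalisation the RNA fold was 1.14 (adjusted p = 0.020). The TE fold was 1.24 with a peak at 16.7 ± 1.0 h (adjusted p = 0.023), under the cutoff. With a 12-h harmonic added the adjusted p of the TE was 0.078, and with timepoint as a factor 0.27. Its TE was 0.255 to 0.347 in the light phase and 0.319 to 0.419 in the dark phase.

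Vdr (chr15:97854425-97910630, minus strand) encodes the nuclear receptor of the hormone. Its RNA ran from 72.6 to 121 RPKM (fold 1.16, adjusted p = 0.15) and its footprints from 115 to 172 RPKM, with a fold of 1.22 and a peak at 2.1 ± 0.9 h (adjusted p = 0.0064), under the cutoff. The RNA fold was 1.14 without replicate 1 and 1.27 without replicate 2, so a flat RNA was not shown. Footprint timepoint means were highest at ZT06 (165 RPKM) and lowest at ZT14 (125 RPKM). The difference between the 2 assays was not shown, with a TE fold of 1.14 (adjusted p = 0.33).

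**Figure D5:**
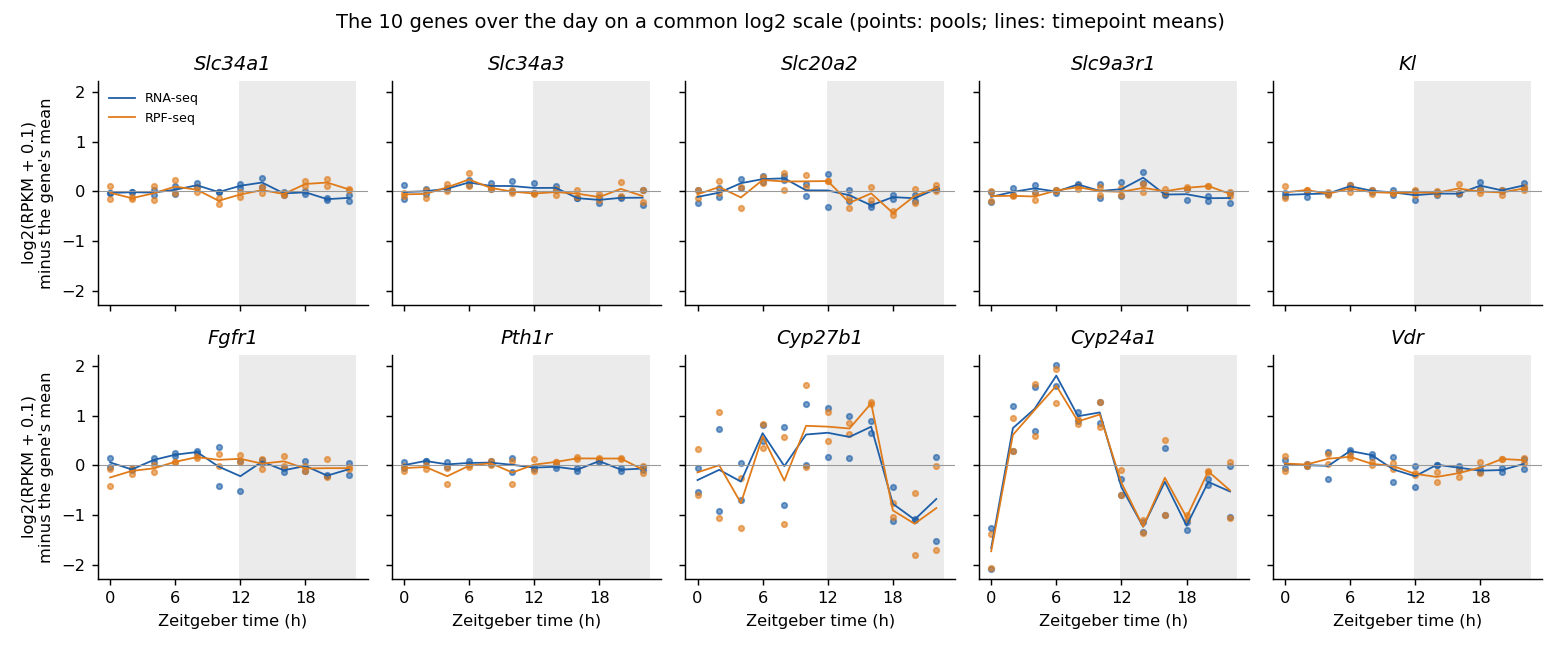
Log2(RPKM + 0.1) minus the mean of each gene (y axis) against Zeitgeber time (x axis, h) for the 10 genes on a common scale, with points for pools and lines for timepoint means in RNA-seq (blue) and RPF-seq (orange). In each assay the pools of Cyp24a1 and of Cyp27b1 span more than 2 log2 units, whereas the pools of each of the other 8 genes stay within 1 unit.

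Around these 10 genes, 44 further genes of the pathways were looked up in 4 lists, of which 36 were tested, and 4 were called by transcript level, 2 by footprint level and 2 by TE, beside 10.2%, 7.58% and 3.74% of all genes. None of the 9 tested carriers, exporters and anchors was called by limma. An unadjusted p under 0.05 was reached by 6 in transcript level, 4 in footprint level and 5 in TE. The FDR alone was passed by 6, 4 and 2 of them, beside 48.6%, 30.9% and 17.1% of all genes. At least these shares of all genes thus had an unadjusted p under 0.05 as well. Slc17a1, a sodium-dependent anion carrier, came nearest with an RNA fold of 1.495, just under the cutoff and a peak at 18.3 h (adjusted p = 1.5e-06), beside an RPF-seq fold of 1.25 (adjusted p = 0.0022). Pdzk1, a second scaffold of the brush border, had RNA and RPF-seq folds of 1.10 and 1.15, and Alpl, an alkaline phosphatase, 1.22 and 1.19.

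Of 10 tested hormones, receptors and signalling genes 2 were called in RNA-seq and 1 in RPF-seq, beside 10.2% and 7.58% of all genes. Sgk1, a kinase induced by steroid hormones, was called in both, with an RNA fold of 2.64 peaking at 15.98 h (adjusted p = 3.0e-07) and an RPF-seq fold of 2.43 at 15.7 h (adjusted p = 3.5e-06). Stc1, which encodes the secreted factor stanniocalcin-1, had an RNA fold of 1.70 at 13.6 h (adjusted p = 0.0084) and an RPF-seq fold of 1.35 (adjusted p = 0.14). Gnas, which encodes the G protein subunit that couples Pth1r to cAMP, had an RNA fold of 1.298 and an RPF-seq fold of 1.04, Prkaca 1.08 and 1.07, and the calcium-sensing receptor gene Casr 1.09 and 1.10. Fgfr4, named after its values were seen, was the only gene of this list called in TE, with a fold of 1.52 (adjusted p = 0.0011). Neither Fgf23 nor Pth was listed in both assays.

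Among 12 tested genes of vitamin D supply and receptor partners 1 was called in RNA-seq and none in RPF-seq by limma, where 6 had an unadjusted p under 0.05 and 5 passed the FDR alone. The shares of all genes were 10.2% called in RNA-seq, 7.58% called in RPF-seq and 30.9% past the FDR alone in RPF-seq. At least 30.9% of all genes thus had an unadjusted p under 0.05 in RPF-seq. Cyp2r1, a 25-hydroxylase, had an RNA fold of 1.63 at 21.2 h (adjusted p = 0.0051) and an RPF-seq fold of 1.42 (adjusted p = 0.15). Lrp2 and Cubn, the endocytic receptors that take up the vitamin D binding protein, had RNA folds of 1.203 and 1.25, and Rxra, the partner of the vitamin D receptor, 1.05.

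Of 5 tested calcium transport genes known as vitamin D receptor targets 1 was called in each measure, beside 10.2% of all genes by transcript level, 7.58% by footprint level and 3.74% by TE. Calb1, which encodes calbindin-D28k of the distal tubule, was called in RNA-seq (fold 1.53, peak 23.7 h, adjusted p = 0.00051). Slc8a1, a sodium-calcium exchanger, was called in RPF-seq (fold 1.51, peak 0.90 h, adjusted p = 0.00026), and S100g, a smaller calbindin, in TE (fold 1.52, peak 6.5 h, adjusted p = 0.0053). The RNA peaks were at 23.7 h for Calb1, 24.0 h for Slc8a1 and 20.2 h for S100g, beside 6.4 h for Cyp24a1. Of these targets only Calb1 was called in RNA-seq. The RPF-seq peaks were at 2.9 h for Calb1, 0.90 h for Slc8a1 and 5.7 h for S100g, beside 6.5 h for Cyp24a1. Only Slc8a1 among these targets was called in RPF-seq. Atp2b1 and Trpv5 had RNA folds of 1.24 and 1.04.

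The genes whose RNA values were most like those of 5 of the 10 genes were sought by Pearson correlation over the 24 RNA-seq libraries, a description without a test, since the points share time of day and library. Nearest to Cyp24a1 were Igfbp1 (r = 0.868, itself 7.19-fold with a peak at 6.1 h), Zswim4 (0.867) and Dennd3 (0.860). Nearest to Cyp27b1 were Aurkb (r = 0.787, with a mean of only 0.546 RPKM), Lmf2 (0.785) and Mfsd12 (0.778). Vdr was most like Git1 (r = 0.934), Plekha7 (0.910) and Zmiz1 (0.908). Slc34a1 was most like Vwa1 (r = 0.889), Mtor (0.869) and Dmac2 (0.867), and Kl like Gpx1 (r = 0.749), Sppl2b (0.738) and Prkcz (0.737).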

How the data were processed

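The 24 RNA-seq and 24 RPF-seq libraries of kidney pools were analysed from the RPKM values on coding sequence that the authors deposited, 1 value per gene and library. The authors trimmed adapters with Cutadapt, kept inserts of 26 to 35 nt in RPF-seq and 21 to 60 nt in RNA-seq, mapped reads with Bowtie 2.2.1 to rRNA, tRNA and Ensembl 75 cDNA and with TopHat 2.0.11 to GRCm38, built transcript models with Cufflinks 2.2.1, normalised by upper quantiles in edgeR and removed genes under an RPKM cutoff. Upper quantile normalisation hides any change in the total mRNA or footprint content over the day. Liver libraries are not analysed here.

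The 10 genes and the lists around them were chosen with earlier results of these data known. Every one of the 10 is described. From the 4 pathway lists, genes called in either assay and the 3 others with the highest mean RNA level per list were named. For 5 of the genes, the 3 genes of highest Pearson r over the RNA-seq libraries were named.

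Of the genes listed in both assays, those whose median reached 0.5 RPKM in each were tested on log2(RPKM + 0.1) with limma 3.58.1 in R 4.3.3 (24-h cosine and sine, eBayes with trend, Benjamini-Hochberg), so folds of low genes are understated. TE was the log2 ratio within a pool. The study's own choice of model by AIC was run as an alternative. Fold intervals are the log2 estimate with a normal 95% interval. Reads behind a value were recovered from the steps between low RPKM values (tolerance 0.0001) and used for precision only, since a count model does not suit RPKM. Counting intervals cover counting error only. Correlations, permutation tests (100000 resamples, or exact over 12 timepoints) and figures used scipy 1.17.1, numpy 2.4.6, pandas 2.3.3 and matplotlib 3.10.9 under Python 3.11.15. The rhythm test was checked on simulated data.

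Replicates were separate pools of animals, and no 2 libraries were identical (r of log2 values between replicates 0.978 to 0.994). Coordinates are from GENCODE vM21. Alternatives were pseudocounts, RPKM filters, FDR and fold thresholds, AIC, curve shapes, quantile normalisation, a replicate block and leaving out replicates or single pools.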

Additional observations from a re-analysis of the deposited data

How the results depend on the processing

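Of the 10 genes 2 were called by transcript level, 2 by footprint level and none by TE. The same counts came from a pseudocount of 1 or 0.01, a filter at 2 RPKM or no filter, AIC selection, an added 12-h harmonic and quantile normalisation. At an FDR of 0.01, 1 was called in RPF-seq. With timepoint as a factor 1 was called in RNA-seq and 1 in RPF-seq, Cyp24a1 in both. Without the fold cutoff 6, 5 and 3 passed in the order RNA, RPF, TE. With all pools of 1 replicate number left out, 1 to 2 were called in RNA-seq and 0 to 1 in RPF-seq. With 1 pool left out at a time 2 were called in RNA-seq and 1 to 2 in RPF-seq. No setting turned a peak by more than 6 h for a gene that stayed called. Of 1050 recomputed folds of the 10 genes 18 lost their call, 17 of them of Cyp27b1 and 1 of Cyp24a1, and none gained one. Only the RNA-seq and RPF-seq folds of these 2 genes had a call to lose. The settings with another FDR or no fold cutoff were not among the recomputed folds.

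Over all genes, 1210 were called by transcript level, 899 by footprint level and 444 by TE. A pseudocount of 1 left 781 in RNA-seq and 590 in RPF-seq, and an FDR of 0.01 left 215 in TE. Without the fold cutoff the counts were 5761, 3663 and 2028. AIC selection called 727 in TE, and timepoint as a factor 2291 in RNA-seq and 98 in TE. Leaving out 1 replicate number gave 722 to 1430 by transcript level, 370 to 853 by footprint level and 0 to 2 by TE, each from 12 pools, and leaving out 1 pool 1160 to 1295, 861 to 956 and 329 to 478. The number of resolved neighbours in the level order was 6 for transcripts, 8 for footprints and 6 for TE, and 4 to 7 for TE with 1 replicate number left out.

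The counts past the FDR alone were also recomputed under the other settings, a combination chosen after seeing the data. With timepoint as a factor 1, 1 and 0 of the 10 genes passed in the order RNA, RPF, TE, and with a 12-h harmonic 1 passed in TE. Without replicate 1 the counts were 1, 0 and 0 and without replicate 2 they were 7, 3 and 0. Cyp24a1, Slc34a1 and Pth1r thus did not pass in TE with either replicate number alone. With the fold cutoff only 0 and 2 of all genes were called in TE in these 2 fits, beside 444 with all pools. The loss was therefore not particular to these 3 genes. Samples that share a replicate number across timepoints deviated together little on average (mean correlation of deviations 0.029 in RNA-seq and 0.020 in RPF-seq). Single pairs of timepoints ran from -0.18 to 0.48 in RNA-seq and from -0.20 to 0.19 in RPF-seq, over 0.1 in 13 and 10 of 66 pairs. The mean cannot show whether some timepoints share an effect of the number. The paper states that sampling covered 2 daily cycles, and the labels do not say whether the number marks the cycle. With the replicate number as a block 1214, 895 and 455 genes were called, and 2, 2 and 0 of the 10.

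Depth limits Cyp27b1 most, whose values rested on medians of 78.5 reads in RNA-seq and 130 in RPF-seq. With 2 pools per timepoint, p-values cover the spread between pools, not between animals.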
